A study of Mus musculus with 59 samples.

Results

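Fos, Fosb, Fosl2, Jun, Junb and Jund encode the Fos and Jun subunits of the transcription factor AP-1 and were followed here across genotype and drug treatment in mouse prefrontal cortex. They were chosen by name, with earlier results of these data known. The rows are those of the deposited table whose Ensembl identifier maps to these 6 symbols, 6 of 18088 genes. All 6 passed the filter on low values, which left 17891 genes for testing. The 59 messenger RNA libraries each come from prefrontal cortex of a C57BL/6J mouse aged 25 days. Naa15, the gene for the ribosome-anchoring subunit of the acetyltransferase NatA, was either intact (wild type, WT) or heterozygous (HT), and the pups received vehicle, fluoxetine or lithium in maternal milk from postnatal day 3 to 24. Fluoxetine is a serotonin reuptake inhibitor, and lithium is a mood stabiliser that inhibits glycogen synthase kinase 3 among other enzymes. Genotype, treatment and sex made 12 groups of 5 libraries, with 4 in the HT vehicle males. All groups share the C57BL/6J background, the age and the dosing through the dam. The labels give neither the Naa15 allele, the drug dose nor the litters, and pups of 1 litter share a dam, so p-values measure the spread between these libraries only. Pups nursed by 1 dam also share its treatment, so treatment and dam cannot be told apart.

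AP-1 is a dimer of basic leucine zipper proteins. Fos proteins cannot pair with each other and bind DNA with a Jun partner, whereas Jun proteins also pair among themselves. Fos, Fosb and Junb are immediate early genes: in cortical neurons, synaptic activity and calcium entry switch them on within minutes through CREB and the serum response factor SRF, and their messages decay quickly. Jun is also an immediate early gene, Fosl2 responds more slowly, and Jund is expressed nearly constitutively. Fosb also gives rise to the truncated, stable protein deltaFosB by alternative splicing, which values per gene do not separate from full-length FosB.

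The 200 bases before the annotated start of Fos, Fosb, Jun and Junb are shown because these genes are known to be read from promoters that answer to CREB, SRF and AP-1 itself. Sequences are from RefSeq (GRCm38.p6), placed on the GENCODE M21 starts. Each runs 5′ to 3′ on the strand of its gene: Fos at chr12:85473690-85473889 on the plus strand, Fosb at chr7:19310052-19310251, Jun at chr4:95052223-95052422 and Junb at chr8:84978719-84978918 on the minus strand. Capitals mark TGACG (the CRE half-site), TGACATCA (a variant AP-1 element) and the TATA motif TATAAA. The AP-1 element TGACTCA and the CArG box, the core of a serum response element, were searched too, all on both strands.
Fos promoter: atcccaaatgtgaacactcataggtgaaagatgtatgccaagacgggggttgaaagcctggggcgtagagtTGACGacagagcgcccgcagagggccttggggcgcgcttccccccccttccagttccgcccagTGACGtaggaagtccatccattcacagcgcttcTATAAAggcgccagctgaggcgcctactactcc
Fosb promoter: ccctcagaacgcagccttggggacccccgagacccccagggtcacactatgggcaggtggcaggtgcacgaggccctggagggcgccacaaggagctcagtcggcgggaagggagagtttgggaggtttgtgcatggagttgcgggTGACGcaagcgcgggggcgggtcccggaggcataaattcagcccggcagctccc
Jun promoter: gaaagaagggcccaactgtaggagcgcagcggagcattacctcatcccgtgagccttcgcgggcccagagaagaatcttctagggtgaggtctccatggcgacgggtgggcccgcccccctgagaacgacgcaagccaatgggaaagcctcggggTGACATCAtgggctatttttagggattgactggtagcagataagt
Junb promoter: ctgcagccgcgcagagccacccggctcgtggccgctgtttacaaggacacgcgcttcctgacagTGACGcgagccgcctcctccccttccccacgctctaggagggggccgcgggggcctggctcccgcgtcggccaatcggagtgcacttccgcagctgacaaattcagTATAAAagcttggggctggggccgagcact
TGACG was found in 3 of the 4 windows: it begins 129 and 66 bases before the start of Fos, 54 before that of Fosb and 136 before that of Junb. TGACATCA was found 45 bases before the start of Jun, and the TATA motif lay 33 bases before the start of Fos and 30 before that of Junb. Over 32851 mouse promoter windows of the same length, 15.7% held TGACG, 2.7% TGACATCA and 10% the TATA motif. The AP-1 element, present in 3.7% of all windows, and the CArG box, present in 1.2%, were in 0 of the 4. Sequence farther upstream than these 200 bases was not searched, so sites there would be missed. These are matches of letters only and were not tested as binding sites. For Fosl2 and Jund the tabulated windows lie 671 and 1210 bases from the GENCODE starts, so none is printed.

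The libraries held 24.99 to 32.87 M reads. Naa15 itself lay between 1476 and 1971 in the WT vehicle libraries and between 1509.8 and 1710.2 in the HT vehicle libraries, with a log2 difference of -0.03 ± 0.04 (SE; limma-trend adjusted p = 0.895). Under fluoxetine it was called higher in the libraries labelled HT (0.12 ± 0.04, adjusted p = 0.0149), where the 5 HT females lay between 1626.4 and 1908.7. That difference was 0.18 ± 0.06 in females (limma-trend adjusted p = 0.00873) and 0.06 ± 0.06 in males (0.63). Naa15 was also called higher for lithium against vehicle (0.12 ± 0.03, limma-trend adjusted p = 0.000363). Since the allele is not given, this value per gene neither bears out nor contradicts the labels, which are used as given. Values throughout are the deposited normalised reads, and log2 differences are of the value plus 1. The 20 lithium libraries and the 5 HT fluoxetine females stood apart from the other 34. Their first principal component (14.4% of the variance) lay between -31.6 and -14.9 against -2.74 to 27.6, and their mitochondrial share at 6.76 to 10.3% against 4.96 to 7.83%. The slope of a library's log2 values on the GC content of the genes, per 10 points of GC, was -0.258 to -0.0554 in these 25 and -0.0649 to 0.191 in the 34. Calls for fluoxetine are therefore given with and without the 5 HT fluoxetine females. Differences are means over matched groups, so a group matched only to these females leaves the comparison with them. For fluoxetine against vehicle that group is the HT vehicle females, and for lithium against fluoxetine the HT lithium females. Every lithium library lies in the set of 25 and every vehicle library outside it, so lithium and the profile of that set cannot be told apart. In bulk tissue, fewer cells of a type and less RNA per cell cannot be told apart either.

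Under vehicle, Jund was the most abundant of the 6 messages and Fosb the least. Per kilobase of exon, the mean over the 19 vehicle libraries was 1582 ± 181 for Jund, 751 ± 211 for Junb, 472 ± 165.5 for Fos, 422 ± 46.5 for Jun, 136 ± 40.7 for Fosl2 and 79.7 ± 39.0 for Fosb (SD). Fos and Jun were the neighbours in that order whose means lay closer than the larger of their SDs. The genes differ in base composition: the longest Fos transcript is 51.9% GC, Fosl2 53.1%, Jun 55.5%, Fosb 56.0%, Junb 62.6% and Jund 67.1%, against a median of 49.3% in the table. Jund is richer in GC than 99.8% of the genes and Junb than 98.7%. Fos (ENSMUSG00000021250) lies on chr12:85473890-85477273, Fosb (ENSMUSG00000003545) on chr7:19302696-19310051 and Fosl2 (ENSMUSG00000029135) on chr5:32135801-32157842. Jun (ENSMUSG00000052684) lies on chr4:95049034-95052222, Junb (ENSMUSG00000052837) on chr8:84974484-84978718 and Jund (ENSMUSG00000071076) on chr8:70698949-70700616 (GRCm38).

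**Figure D1:**
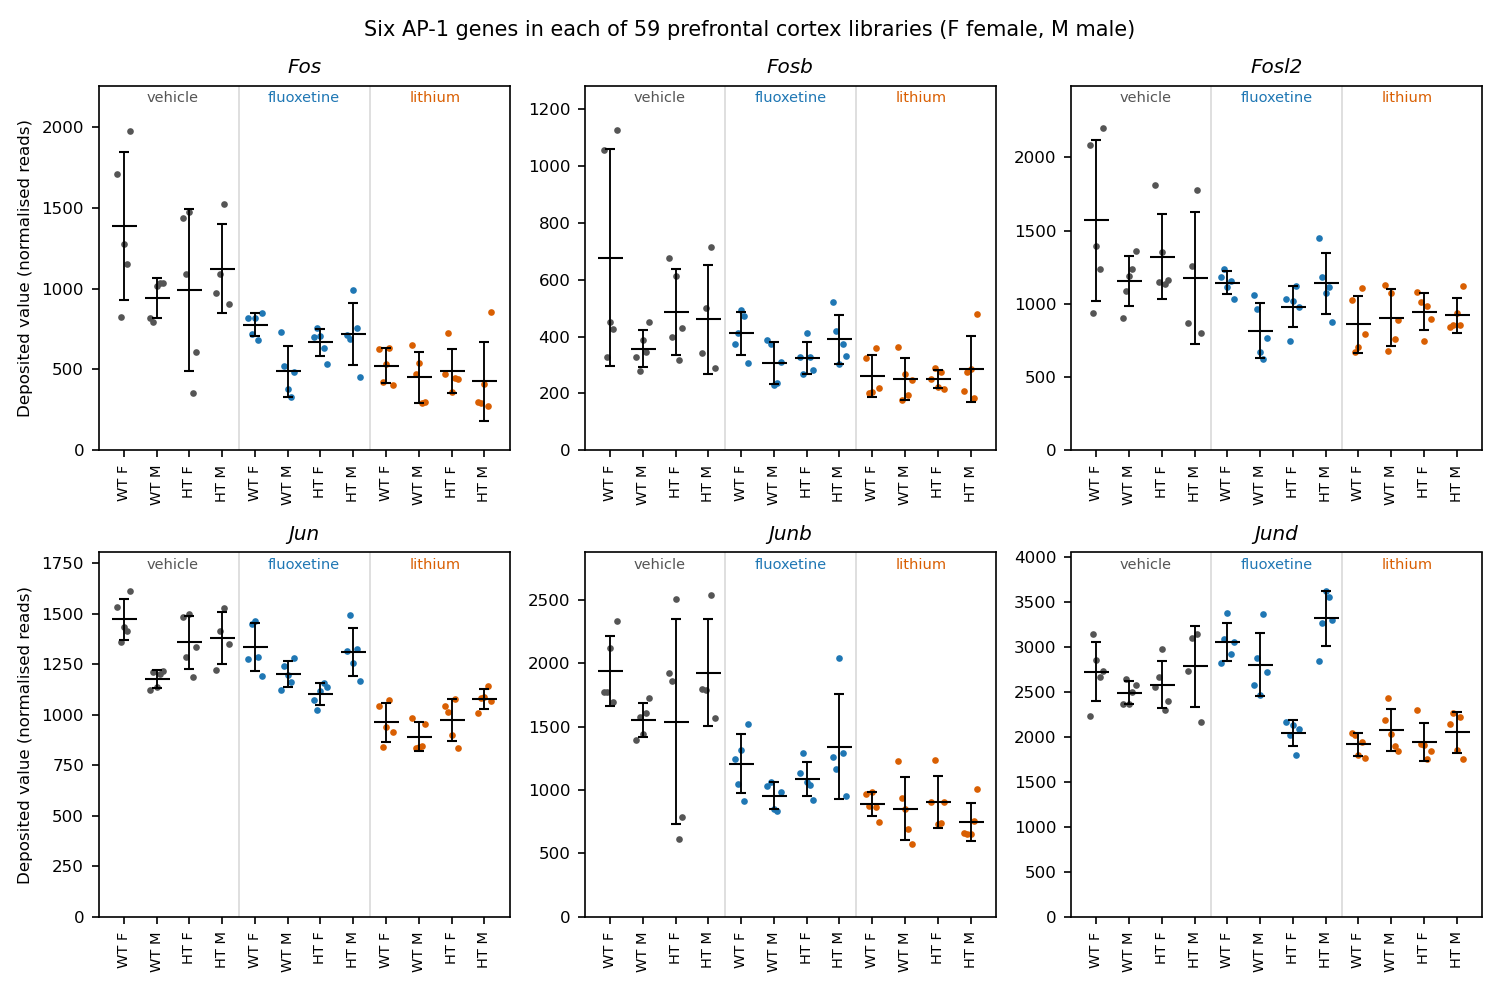
Deposited value (normalised reads, linear axis from 0) of each gene in every library, by genotype and sex within treatment; points are libraries, and bars are the group mean ± SD (n = 5, or 4 for HT vehicle males). Jun lies lowest in the 4 lithium groups, and Jund in these and the HT fluoxetine females; WT fluoxetine males share the low Fos values of the lithium groups.

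Between groups the order of the levels was widest for Fos, whose highest group mean was 3.25 times its lowest, followed by Fosb (2.71 times), Junb (2.60), Fosl2 (1.92), Jund (1.73) and Jun (1.65). WT vehicle females had the highest mean of Fos, 1386 ± 457 (SD, n = 5), and HT lithium males the lowest, 426.5 ± 246.0 (SD, n = 5). Neighbouring groups in these orders mostly differed by less than the larger of their SDs. For Fos, 2 of the 11 gaps were wider, between the WT vehicle males (939.6 ± 124) and the WT fluoxetine females (776.5 ± 72.3), and between the HT fluoxetine females (667 ± 84.8) and the WT lithium females (523 ± 109.8). For Jund the 1 wider gap lay between the WT vehicle males (2493 ± 126) and the next group, the WT lithium males (2079 ± 237), with the HT fluoxetine females (2045 ± 145.5) and the other lithium groups below. Fosb and Fosl2 had 0 such gaps, Jun 2 and Junb 1.

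Fluoxetine against vehicle compared the libraries of the 2 treatments over both genotypes and sexes. Of the 6 genes, 5 fell (Fos, Junb, Fosb, Fosl2 and Jun) and Jund did not pass. Of all genes tested, 10.3% were called lower in the same comparison. Without the HT fluoxetine females, 2 of the 6 fell, Fos and Junb, where 0.872% of all genes did, and Jund rose, where 1.21% of all genes rose. That comparison also leaves out the HT vehicle females, which then have no matched group. It sets 15 fluoxetine libraries against the vehicle libraries of WT mice and HT males, and lies wholly within the set of 34 libraries.

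Fos, the prototype activity-regulated subunit, ranged from 352 to 1977 with a median of 1037 in the 19 vehicle libraries, and from 328 to 989 with a median of 705 in the 20 fluoxetine libraries. The ranges overlap, but 12 of the 19 vehicle libraries lay above the highest fluoxetine library. Fos fell by 38.5%, a log2 difference of -0.70 ± 0.14 (SE; limma-trend adjusted p = 0.000326), and 20 of 20 fluoxetine libraries lay below the vehicle mean of their genotype and sex. Without the HT females of both treatments the difference was -0.81 ± 0.17 (limma-trend adjusted p = 0.00469). In the WT females Fos was 1707, 824, 1273, 1149.7 and 1977 under vehicle and 816, 719, 818, 681 and 848 under fluoxetine. In the WT males it was 816, 793, 1017, 1037 and 1035 under vehicle and 734, 521, 381, 328 and 482 under fluoxetine. The 2 groups of WT males do not overlap, and in the WT females 1 of the 5 vehicle libraries lay inside the fluoxetine range. Neither sex of WT mice passed alone (limma-trend adjusted p = 0.16 in males and 0.282 in females).

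In the HT females Fos was 1439, 1088, 1476, 352 and 605 under vehicle and 699.9, 755, 709, 635 and 536 under fluoxetine. In the HT males it was 972, 1093, 1522 and 907 under vehicle and 714, 685, 989, 757 and 453 under fluoxetine. The HT vehicle females split: replicates 1, 2 and 3 lay above every fluoxetine female, replicate 5 among them and replicate 4 below them all. These same 2 animals held the lowest values of Junb under vehicle (613 and 784), while their Jund (2301 and 2400.2) lay within the vehicle range.

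Junb, which encodes a Jun subunit that is switched on with Fos, ranged from 613 to 2537 with a median of 1771 under vehicle, and from 831 to 2039 with a median of 1064 under fluoxetine. It fell by 32.3%, a log2 difference of -0.56 ± 0.11 (limma-trend adjusted p = 0.000266), with 19 of 20 fluoxetine libraries below the matched vehicle mean. Without the HT females of both treatments the difference was -0.65 ± 0.14 (limma-trend adjusted p = 0.00371). In the WT males Junb was 1394, 1578, 1444, 1611 and 1726 under vehicle and 1032, 1065, 850.3, 831 and 986 under fluoxetine, and the groups do not overlap. In the WT females it was 1774, 1771, 2119, 1697 and 2330.3 under vehicle and 1241, 1051, 1311, 916 and 1522 under fluoxetine, again without overlap. Taken alone, neither sex of WT mice passed (limma-trend adjusted p = 0.241 in males and 0.211 in females). The HT male with the highest Fos under fluoxetine, replicate 3, also had the highest Junb (2039).

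Fosb, whose product includes deltaFosB, ranged from 279 to 1128 under vehicle (median 428) and from 230.1 to 523 under fluoxetine (median 351), with 17 of 20 fluoxetine libraries below the matched mean. Its log2 difference was -0.38 ± 0.13 (limma-trend adjusted p = 0.0357). The highest vehicle values were those of WT females 1 and 5, at 1055 and 1128, and the other 17 vehicle libraries lay at or below 716.5. The call was lost when any 1 of 12 libraries was left out: WT vehicle females 1 and 5, WT vehicle male 5, HT vehicle females 1 and 3, HT vehicle males 2 and 3, WT fluoxetine female 5, WT fluoxetine males 3 and 4, HT fluoxetine female 2 or HT fluoxetine male 3, with differences of -0.32 to -0.36 and adjusted p of 0.0545 to 0.0854. It was lost too without the 5 HT fluoxetine females (-0.32 ± 0.16, limma-trend adjusted p = 0.417).

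Fosl2, encoding Fra-2, ranged from 801 to 2203 under vehicle (median 1235) and from 620.0 to 1448 under fluoxetine (median 1049), and fell by 0.33 ± 0.10 on the log2 scale (limma-trend adjusted p = 0.0102). Jun, the founding Jun subunit and the main substrate of the JNK kinases, ranged from 1122 to 1615 (median 1350.0) and from 1023 to 1494 (median 1218), and fell by 0.12 ± 0.04 (adjusted p = 0.0115). For both genes the ranges overlap widely. Neither call held without the HT fluoxetine females, where the differences were -0.30 ± 0.11 (adjusted p = 0.209) for Fosl2 and -0.06 ± 0.04 (adjusted p = 0.640) for Jun.

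Jund, the constitutive Jun subunit, ranged from 2166 to 3145 under vehicle (median 2650.1) and from 1804 to 3622 under fluoxetine (median 2866). Its log2 difference over all fluoxetine libraries was 0.07 ± 0.05 (limma-trend adjusted p = 0.358). The fluoxetine libraries form 2 bands: the 5 HT females lay between 1804 and 2169.5, below every other fluoxetine library, and the other 15 between 2467 and 3622. Without the HT females Jund rose by 0.20 ± 0.05 on the log2 scale (limma-trend adjusted p = 0.0393), and 2 of the 15 libraries lay below the vehicle median.

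**Figure D2:**
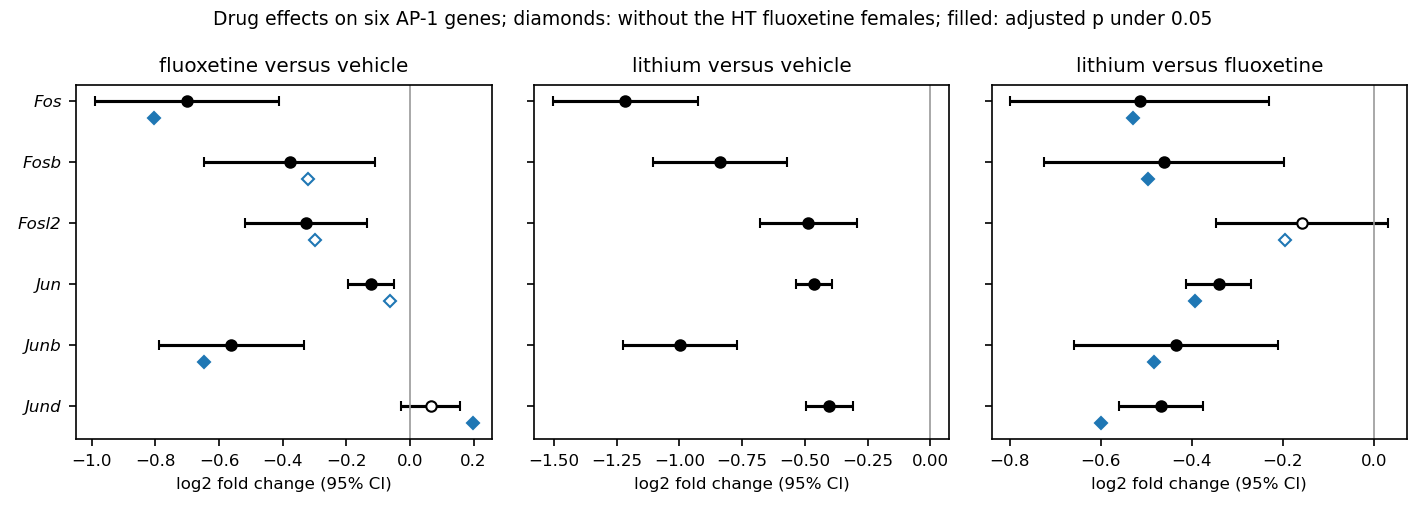
Fitted log2 difference of each gene in the 3 drug comparisons, with 95% confidence intervals (circles) and, in the 2 comparisons that contain fluoxetine, the value without the 5 HT fluoxetine females (diamonds); filled symbols have a limma-trend adjusted p under 0.05. Fos and Junb keep filled symbols in each panel, and Jund turns from open to filled above 0 in the fluoxetine panel.

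Lithium against vehicle lowered all 6 genes, where 30.4% of all genes were called lower. Fos ranged from 273 to 856 with a median of 444 under lithium; all 20 libraries lay below the vehicle median and below the matched vehicle means, and 14 of the 19 vehicle libraries above the highest lithium library. It fell by 56.9%, a log2 difference of -1.22 ± 0.14 (SE; limma-trend adjusted p = 1.48e-10). Junb ranged from 570.0 to 1238 (median 857) and fell by 49.9%, a log2 difference of -0.997 ± 0.113 (adjusted p = 4.91e-11), with 17 of the 19 vehicle libraries above every lithium library. Fosb ranged from 176 to 479 (median 249.9) and fell by 44.1%, and 14 of its 20 lithium libraries lay below the lowest vehicle library (log2 difference -0.84 ± 0.13, adjusted p = 2.5e-07). These 3 genes had the largest differences of the 6.

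The 3 others fell by less on the log2 scale and mostly with smaller standard errors. Jun ranged from 834 to 1144 (median 996) under lithium, and 19 of the 20 libraries lay below the lowest vehicle library, 1122. Its log2 difference was -0.46 ± 0.04 (limma-trend adjusted p = 2.1e-16), the smallest p of the 6. Jund ranged from 1756 to 2429.8 (median 1935), with 15 of 20 below the lowest vehicle library and a difference of -0.40 ± 0.05 (adjusted p = 6.62e-11). Fosl2 ranged from 671 to 1126 (median 893), with 6 of 20 below the lowest vehicle library and a difference of -0.49 ± 0.10 (adjusted p = 1.49e-05).

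Since lithium and the library profile cannot be told apart, the covariate fit is given beside these calls. With each library's slopes on GC and length as covariates, 0 of the 6 genes were called for lithium against vehicle, where 5.05% of all genes were called lower. The differences were then -0.96 ± 0.58 for Fos (limma-trend adjusted p = 0.303), -0.73 ± 0.46 for Junb (0.316) and -0.0473 ± 0.4944 for Fosb (0.965). Those of the others were -0.04 ± 0.13 for Jun (0.897), -0.11 ± 0.12 for Jund (0.628) and 0.43 ± 0.34 for Fosl2 (0.443). The standard errors are wider than without the covariates, from 0.14 to 0.58 for Fos. The same fit called all 8 oligodendrocyte markers higher under lithium (median 2.52), where 6.51% of all genes were. Without the covariates it was 0 of the 8, where 32.7% of all genes were called higher. For fluoxetine against vehicle it called 1 of the 6, where 3.44% of all genes were called lower: Junb (-0.51 ± 0.16, adjusted p = 0.0418), with Fos at -0.62 ± 0.21 (0.0537).

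Lithium against fluoxetine compared the drugs directly. Of the 6 genes, 5 fell, where 26.2% of all genes were called lower: Fos by 0.51 ± 0.14 on the log2 scale (limma-trend adjusted p = 0.00171), Fosb by 0.46 ± 0.13 (0.00244), Junb by 0.43 ± 0.11 (0.000816), Jun by 0.34 ± 0.04 (8.56e-12) and Jund by 0.47 ± 0.05 (1.13e-12). Fosl2 did not pass, at -0.16 ± 0.09 (adjusted p = 0.153). The 2 drug comparisons with vehicle share the 19 vehicle libraries, so their values stand side by side only. The same 5 genes were called lower without the HT fluoxetine females, where 28.1% of all genes were, with Jund at -0.60 ± 0.05. With slopes on GC and length as covariates 0 of the 6 were called, where 4.67% of all genes were called lower. In that fit Fos was at -0.34 ± 0.44 (adjusted p = 0.681), Junb at -0.22 ± 0.35 (0.738), Jun at -0.03 ± 0.10 (0.898) and Jund at -0.22 ± 0.09 (0.113), and Fosb turned to 0.0898 ± 0.3754 (0.911).

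HT females allow the drugs to be compared within the set of 25 libraries, a comparison chosen after the data were seen. There 0 of the 6 genes passed, where 0.0503% of all genes were called lower; 1 gene had an unadjusted p under 0.05, and edgeR and DESeq2 called 0. Jun was 1072, 1023, 1119, 1156.5 and 1139 under fluoxetine and 1042, 1016, 902, 1078 and 834 under lithium, with overlapping ranges and a log2 difference of -0.18 ± 0.07 (limma-trend adjusted p = 0.330). Fos was 474, 726, 363, 448 and 441 under lithium against the fluoxetine values given above, 4 of 5 below the fluoxetine mean (-0.47 ± 0.28, adjusted p = 0.575). Jund was 2300.4, 1925, 1907, 1756 and 1844 under lithium and 2169.5, 2025, 2137.5, 1804 and 2089.7 under fluoxetine, a difference of -0.07 ± 0.09 (95% confidence interval -0.26 to 0.11).

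Within genotypes, fluoxetine lowered 2 of the 6 genes in WT mice, where 0.386% of all genes were called lower, and 3 of the 6 in HT mice, where 16.3% were. In WT mice Fos fell by 0.88 ± 0.20 on the log2 scale (limma-trend adjusted p = 0.0136) and Junb by 0.70 ± 0.16 (0.0128), each with 10 of 10 libraries below the matched mean. In HT mice Fos fell by 0.52 ± 0.21 (0.0463), Junb by 0.42 ± 0.16 (0.0396) and Jun by 0.18 ± 0.05 (0.00422). Without the HT fluoxetine females this HT comparison is that of the HT males alone, 5 fluoxetine and 4 vehicle libraries. The 3 HT calls were lost there: Fos at -0.66 ± 0.31 (limma-trend adjusted p = 0.572), Junb at -0.54 ± 0.24 (0.538) and Jun at -0.07 ± 0.08 (0.853). The Fos and Junb differences were larger than over both sexes, with wider standard errors. The Fos call in HT mice was also lost on leaving out any 1 of HT vehicle females 1, 2 and 3, HT vehicle males 2 and 3, HT fluoxetine females 1, 3, 4 and 5 and HT fluoxetine males 1, 2 and 5 (-0.43 to -0.53, adjusted p 0.0523 to 0.118). The Junb call was lost on leaving out any 1 of HT vehicle females 1, 2 and 3, HT vehicle male 3, HT fluoxetine females 3, 4 and 5 and HT fluoxetine males 1, 2 and 5 (-0.31 to -0.42, adjusted p 0.0529 to 0.127). In the fit with GC and length slopes both WT calls were made (Fos -0.84 ± 0.21, limma-trend adjusted p = 0.0282; Junb -0.76 ± 0.16, 0.00972), where 0.397% of all genes were called lower. In HT mice that fit called 0 of the 6, where 3.49% of all genes were called lower (Fos -0.40 ± 0.37, 0.551; Junb -0.26 ± 0.29, 0.632; Jun 0.0453 ± 0.0842, 0.791).

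Lithium lowered all 6 genes in WT mice, where 26.3% of all genes were called lower, and all 6 in HT mice, where 24.9% were. The log2 difference of Fos was -1.24 ± 0.20 in WT and -1.188 ± 0.206 in HT mice, and that of Jun -0.51 ± 0.05 and -0.41 ± 0.05. In the covariate fit 0 of the 6 were called in either genotype, where 4.88% of all genes in WT and 4.37% in HT mice were called lower. Fosl2 had the weakest call in HT mice (-0.38 ± 0.14, limma-trend adjusted p = 0.0184), which was lost without HT vehicle female 1 (-0.32, adjusted p = 0.0512) or HT vehicle male 3 (-0.27, adjusted p = 0.0993). The HT lithium male with the highest Fos, replicate 5 at 856, lay far from the other 4, at 299.9, 295, 408 and 273. It also had the highest Fosb (479), Fosl2 (1121) and Junb (1007) of its group.

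**Figure D3:**
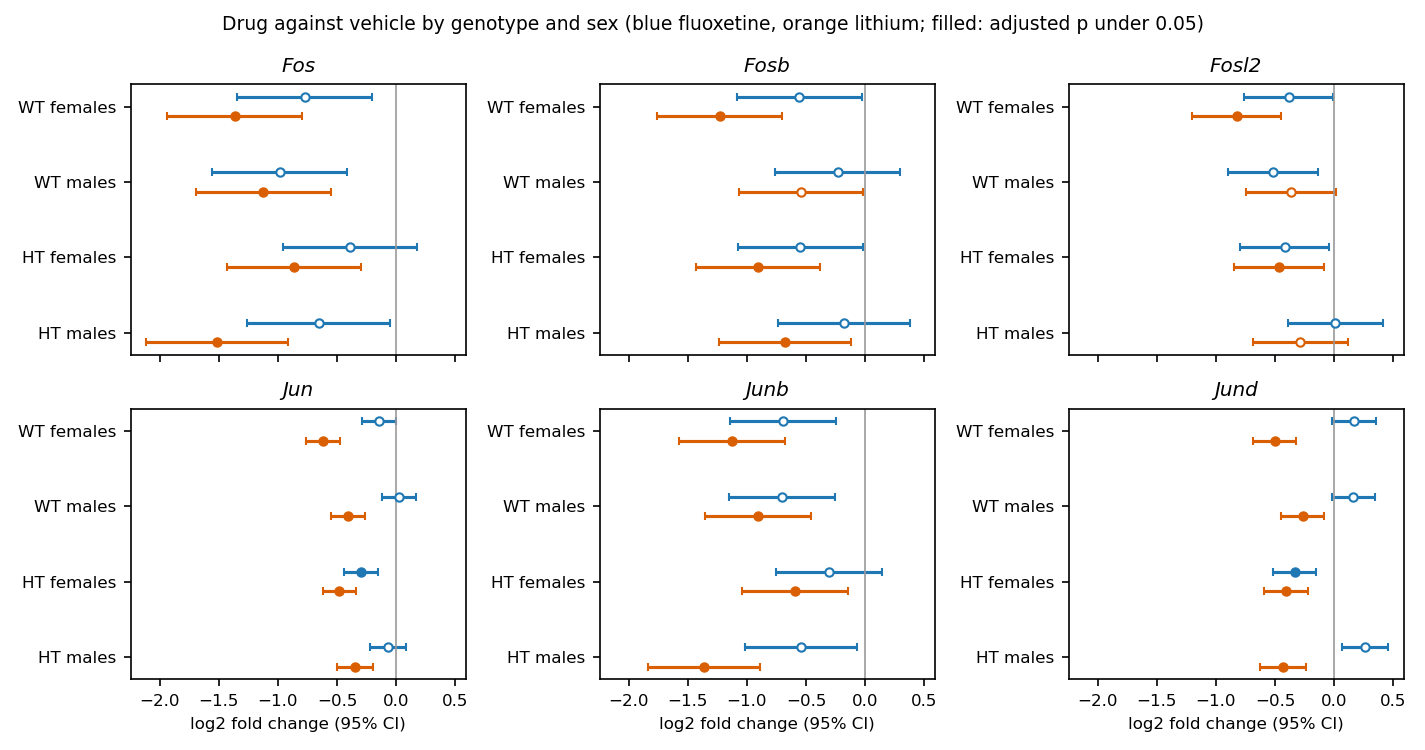
Log2 difference from vehicle with 95% confidence interval for fluoxetine (blue) and lithium (orange) in each genotype and sex, from 4 or 5 libraries a side; filled symbols have a limma-trend adjusted p under 0.05. Fos and Junb lie below 0 in all 4 strata for both drugs, called in each for lithium and in none for fluoxetine. The Jund difference for fluoxetine is below 0 and called in HT females, and above 0 and not called in the other 3 strata.

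Jund was the 1 gene of the 6 whose fluoxetine difference was called as different between the sexes of HT mice. In the HT females it was 2555, 2669, 2981, 2301 and 2400.2 under vehicle and 2169.5, 2025, 2137.5, 1804 and 2089.7 under fluoxetine, 5 of 5 below every vehicle female, and it fell by 0.33 ± 0.09 on the log2 scale (limma-trend adjusted p = 0.0026). In the HT males it was 2731, 3102, 3145 and 2166 under vehicle and 2849, 3263, 3622, 3554 and 3303 under fluoxetine, 5 of 5 above the vehicle mean (0.26 ± 0.10, adjusted p = 0.361). The difference between these differences was -0.60 ± 0.13 (limma-trend adjusted p = 0.00129), and it was the 1 call of the 6. Of all 17891 genes tested, 1179 were called higher and 1537 lower (8.59%) in the same comparison. In WT mice the same difference of differences was 0.01 ± 0.13 (adjusted p = 0.996), and the gap between the genotypes in it was not tested. The HT fluoxetine females are the group that lies with the lithium libraries in profile; with slopes on GC and length in the model the difference of differences was -0.34 ± 0.14 (adjusted p = 0.276). In that fit the fluoxetine difference of Jund was -0.0114 ± 0.1333 in HT females (adjusted p = 0.976) and 0.33 ± 0.06 in HT males (0.00551), where 0.464% of all genes were called higher.

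Genotype under vehicle compared the libraries labelled HT and WT without a drug. Of the 6 genes, 0 were called by limma-trend, where 0.106% of all genes were called in either direction. At an unadjusted p under 0.05 there were 0 too, and edgeR and DESeq2 called 0. The differences ran from -0.19 ± 0.21 for Fos (95% confidence interval -0.60 to 0.23) to 0.05 ± 0.05 for Jun (-0.05 to 0.16). Over all treatments 0 of the 6 were called, where 14.7% of all genes were, with values from -0.05 ± 0.12 for Fos to 0.04 ± 0.03 for Jun; 0 had an unadjusted p under 0.05, and edgeR and DESeq2 called 0. With slopes on GC and length as covariates 1 was, where 14.1% of all genes were: Jun, higher in HT mice (0.11 ± 0.03, adjusted p = 0.0235). Under lithium 0 were called, where 0.386% of all genes were; Jun alone had an unadjusted p under 0.05 (0.15 ± 0.05, adjusted p = 0.159), and edgeR and DESeq2 called 0.

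Within the sexes, in vehicle males Jun was 1221, 1416.5, 1530.3 and 1350.0 in HT and 1122, 1213, 1137, 1203.5 and 1216 in WT mice, all 4 HT above all 5 WT, without passing (0.22 ± 0.08, limma-trend adjusted p = 0.314). In vehicle females the difference was -0.61 ± 0.28 for Fos (adjusted p = 0.643) and -0.52 ± 0.22 for Junb (0.596).

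Under fluoxetine Jund was the 1 gene of the 6 called lower in HT than in WT mice, with a log2 difference of -0.17 ± 0.06 (limma-trend adjusted p = 0.0407), where 17.8% of all genes were called lower. In females the difference was -0.58 ± 0.09 for Jund (adjusted p = 9.01e-07) and -0.27 ± 0.07 for Jun (adjusted p = 0.00156), 2 of the 6, where 20.2% of all genes were called lower. In males the Jund difference was 0.25 ± 0.09 and did not pass (adjusted p = 0.154); without the HT fluoxetine females it is the comparison's whole value (adjusted p = 0.175). The Jund call over both sexes was lost on leaving out any 1 of HT fluoxetine females 2 and 4, HT fluoxetine males 1, 2 and 5, WT fluoxetine females 2, 3 and 5 and WT fluoxetine males 2 and 4 (-0.13 to -0.17, adjusted p 0.0508 to 0.114). With slopes on GC and length as covariates, neither the call over both sexes (Jund 0.0458 ± 0.0774, adjusted p = 0.752) nor those in females were made (Jund -0.17 ± 0.13, 0.5; Jun 0.13 ± 0.14, 0.664). In males that fit called Jund (0.26 ± 0.06, adjusted p = 0.00849) and Fosl2 (0.62 ± 0.17, 0.0215) higher in HT than in WT mice, where 3.36% of all genes were called higher.

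The genotype by fluoxetine interaction called 0 of the 6 genes, where 20.6% of all genes were called in either direction. It ran from -0.20 ± 0.09 for Jund (limma-trend adjusted p = 0.121) to 0.36 ± 0.29 for Fos (0.424); Jund alone had an unadjusted p under 0.05, and edgeR and DESeq2 called 0. Without HT vehicle male 4, Jund passed (-0.26, adjusted p = 0.0292). The genotype by lithium interaction called 0, where 0% of all genes were called, with values from -0.04 ± 0.09 for Jund to 0.22 ± 0.19 for Fosl2; 0 had an unadjusted p under 0.05, and edgeR and DESeq2 called 0.

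Between the sexes, 1 of the 6 genes was called: Jund was lower in females, with a log2 difference of -0.12 ± 0.04 (limma-trend adjusted p = 0.0338), where 5.2% of all genes were called lower in females. Without the 5 HT fluoxetine females the difference was -0.01 ± 0.04 (adjusted p = 0.961), and with slopes on GC and length as covariates -0.04 ± 0.03 (0.507). It was lost too on leaving out WT vehicle female 1, HT vehicle male 2, WT fluoxetine male 4, HT fluoxetine female 4, HT fluoxetine male 3 or HT lithium male 2 (-0.11 to -0.12, adjusted p 0.0503 to 0.0561). For Fos the difference was 0.23 ± 0.12 and did not pass (adjusted p = 0.202).

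The sex by fluoxetine interaction called 0 of the 6 genes by limma-trend, where 2.76% of all genes were called in either direction. At an unadjusted p under 0.05 there were 2 genes, Jund (-0.29 ± 0.09, adjusted p = 0.0657) and Jun (-0.20 ± 0.07, adjusted p = 0.119); edgeR called 0 and DESeq2 1. Jund passed when WT vehicle female 1, HT vehicle male 2 or 3, HT fluoxetine male 1 or WT fluoxetine male 3 was left out (-0.32 to -0.33, adjusted p 0.0294 to 0.048). The sex by lithium interaction called 0, where 0.0112% of all genes were called, and ran from -0.46 ± 0.27 for Fosb (limma-trend adjusted p = 0.430) to 0.28 ± 0.23 for Junb (0.603); Jun alone had an unadjusted p under 0.05 (-0.17 ± 0.07, adjusted p = 0.271), and edgeR and DESeq2 called 0.

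The genes also varied together between animals of 1 group. After each group's mean was taken off, the log2 values of the 59 libraries gave 15 pairs of genes, of which 10 had a Benjamini-Hochberg adjusted permutation p under 0.05. The tightest were Fosb with Fosl2 (Pearson's r = 0.88, Spearman's rho = 0.87) and Fos with Junb (r = 0.84, rho = 0.82), both at the smallest adjusted p that 100000 permutations gave here, 2.5e-05 for r and 3.75e-05 for rho. Fos with Fosb had r = 0.70 (rho = 0.64, adjusted p = 2.5e-05 and 5e-05) and Fos with Fosl2 r = 0.64 (rho = 0.65, adjusted p = 2.5e-05 and 3.75e-05). Lower values were found for Junb with Fosb (r = 0.37, rho = 0.31, adjusted p = 0.0119 and 0.0472) and with Fosl2 (r = 0.355, rho = 0.38, adjusted p = 0.0119 and 0.0137). Without the 2 libraries farthest from the median of the first gene, Fosb with Fosl2 had r = 0.86, Fos with Junb 0.81, Fos with Fosb 0.66, Fos with Fosl2 0.67, Fosb with Junb 0.36 and Fosl2 with Junb 0.33. Within the 25 libraries that stand apart and the 34 others, Fos with Junb had r = 0.82 and 0.86, Fosb with Fosl2 0.82 and 0.91, Fos with Fosb 0.74 and 0.68, Fos with Fosl2 0.56 and 0.69, Fosb with Junb 0.39 and 0.36, and Fosl2 with Junb 0.27 and 0.39.

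Jun went with Fosl2 (r = 0.62, rho = 0.65) and Fosb (r = 0.61, rho = 0.63), both at an adjusted p of 2.5e-05 for r and at most 5e-05 for rho, and with Fos at r = 0.40 (rho = 0.35, adjusted p = 0.0105 and 0.0243). Without the 2 farthest libraries these were 0.59, 0.58 and 0.38, within the 25 libraries 0.66, 0.53 and 0.22, and within the 34 they were 0.61, 0.66 and 0.53. With Junb no relation was detectable (r = 0.285, rho = 0.21, adjusted p = 0.121 and 0.246; r = 0.33 without the 2 farthest libraries, 0.056 within the 25 and 0.41 within the 34). Jund went with Junb alone among the 6 (r = 0.37, rho = 0.39, adjusted p = 0.0119 and 0.0137; r = 0.29 without the 2 farthest libraries, 0.22 within the 25 and 0.45 within the 34).

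**Figure D4:**
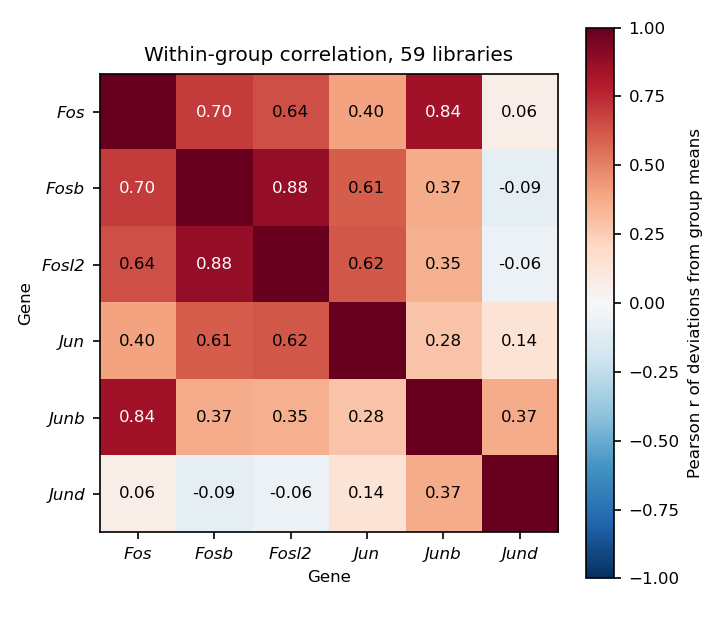
Pearson's r of the log2 values of each pair of genes after the mean of each of the 12 groups was taken off (59 libraries; colour and number both give r). Fosb with Fosl2 and Fos with Junb have the highest values, and Jund lies between -0.09 and 0.14 with every gene but Junb.

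Against the profile of the libraries the genes divided differently. Of 12 correlations within groups, the GC slope went with Jund (r = 0.74, rho = 0.76, adjusted permutation p = 0.00012 for both; r = 0.70 without the 2 farthest libraries, 0.67 within the 25 and 0.81 within the 34). For Fos the value was -0.08 (rho = -0.06, adjusted p = 0.591 and 0.718), and for Junb 0.20 (rho = 0.16, adjusted p = 0.291 and 0.418). The mitochondrial share went with Jun (r = -0.575, rho = -0.55, adjusted p = 0.00018 and 0.00048; -0.53 without the 2 farthest, -0.76 within the 25 and -0.38 within the 34). It went with Fosl2 (r = -0.435, rho = -0.47, adjusted p = 0.0056 and 0.0026; -0.44, -0.545 and -0.40) and Fosb (r = -0.33, rho = -0.36, adjusted p = 0.0439 and 0.027; -0.31, -0.36 and -0.34) too. For Fos it did not pass (r = -0.30, rho = -0.32, adjusted p = 0.0918 and 0.0612), with -0.27 without the 2 farthest, -0.11 within the 25 and -0.54 within the 34, the set that holds the fluoxetine comparison made without the HT females. For Junb it was -0.21 (rho = -0.18, adjusted p = 0.253 and 0.354), with -0.205, -0.064 and -0.36. The part of the mitochondrial share in the lower Fos and Junb under fluoxetine was not tested. The slope is itself computed from the table's genes, of which Jund is 1.

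**Figure D5:**
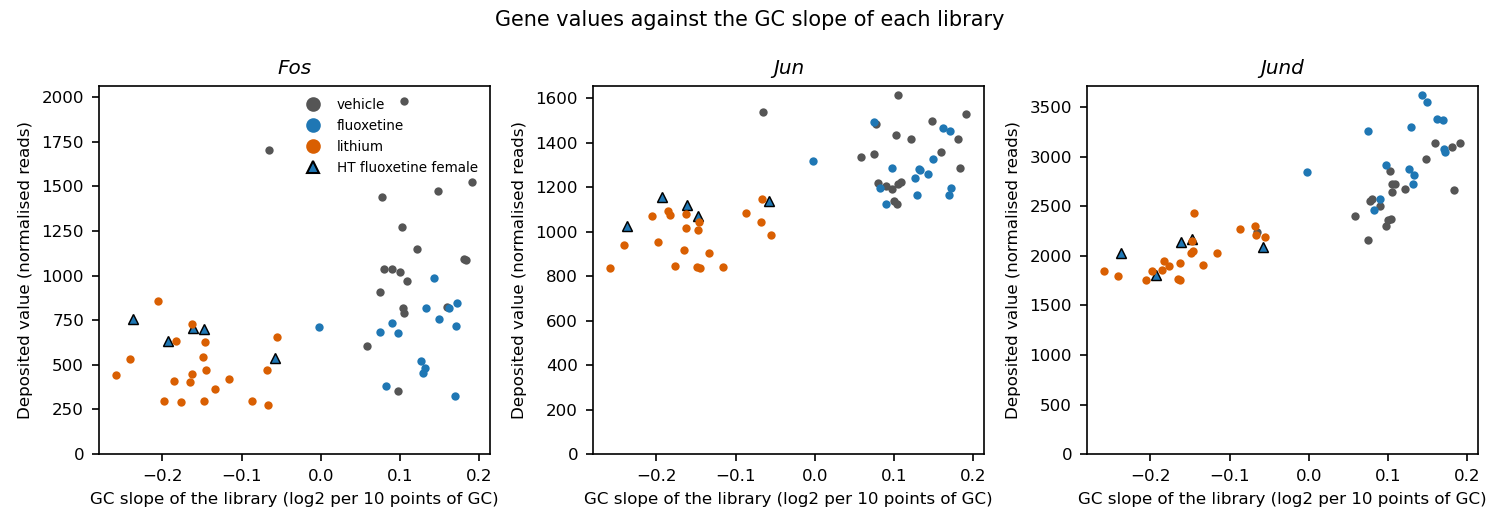
Deposited value of Fos, Jun and Jund (linear axis from 0) in each library against the slope of that library's log2 values on the GC content of the genes; colours give the treatment, and triangles the 5 HT fluoxetine females. Jund is lower where the slope is lower, with the triangles among the lithium libraries. In Fos all 20 lithium libraries lie below the vehicle median, and 12 of the 19 vehicle libraries lie above every fluoxetine library.

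Genes were ranked by how closely they followed each of the 6 over the 59 libraries, among 12464 other tested genes with a mean of at least 100. These correlations include the differences between groups and the shared libraries and are descriptions. Fos was followed most closely by Junb (r = 0.93), Egr2 (0.90), Arc (0.89), Egr1 (0.89) and Sik1 (0.88), where Egr1 and Egr2 encode zinc finger factors, Arc a regulator of AMPA receptor traffic and Sik1 a kinase that restrains CREB coactivators. Junb was followed by the orphan receptor gene Nr4a1 (r = 0.95), Arc (0.93), Fos (0.93), Egr2 (0.915) and Ier2 (0.90). With group means taken off, Egr1 had r = 0.85 with Fos and Nr4a1 r = 0.89 with Junb, each the highest of all genes compared.

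Fosb and Fosl2 were each other's closest gene (r = 0.90), and both had Kdm6b, which encodes a histone H3 lysine demethylase, among their 5 (0.87 and 0.845) as well as Cdr2l (0.84 and 0.83). Fosb was also followed by Adcy8, an adenylyl cyclase gene (0.84), and Zfp516 (0.84), and Fosl2 by the orphan receptor gene Nr4a3 (0.87) and Tpbg (0.82). Jun was followed by Tmem130 (0.92), the splicing factor gene Sf3b3 (0.90), Rbm14 (0.89), the plakoglobin gene Jup (0.89) and Kirrel3 (0.89), none of them on the list of immediate early genes. Jund was followed by Pcsk1n (0.97), C1qtnf4 (0.965), the linker histone gene H1fx (0.96), Fam171a2 (0.96) and Prr7 (0.95). The GC content of the 4 last-named genes was 66.8 to 71.3%, near that of Jund, and that of Pcsk1n 57.3%.

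Around AP-1, more of the other immediate early genes fell than rose. This list and those below were chosen with earlier results of these data known, so their counts are descriptions only. Of all genes tested, 10.3% were called lower and 9.72% higher under fluoxetine, and 30.4% lower and 32.7% higher under lithium. Counts of each list below over all libraries and without covariates stand against these shares. Of 30 immediate early genes, 15 fell and 4 rose under fluoxetine (median log2 difference -0.16 against 0 over all genes), and 21 fell and 4 rose under lithium (median -0.46 against 0.02). Without the HT fluoxetine females 10 fell and 1 rose under fluoxetine, where 0.872% of all genes fell and 1.21% rose. The members with the smallest p under fluoxetine were Sik1 (-0.60 ± 0.08, limma-trend adjusted p = 2.57e-07), Nr4a1 (-0.67 ± 0.10, 5.5e-06) and the small GTPase gene Rheb, which rose by 0.10 ± 0.02 (2.85e-05). Without those females Sik1 was at -0.56 ± 0.09 (adjusted p = 0.000122) and Nr4a1 at -0.73 ± 0.12 (0.000167), while Rheb did not pass (0.03 ± 0.02, 0.599). Under lithium they were Rheb (0.29 ± 0.02, adjusted p = 2.05e-20), Sik1 (-1.08 ± 0.08, 1.18e-17) and the clock gene Per1 (-0.71 ± 0.06, 1.47e-15). In lithium against fluoxetine 17 of the 30 were lower and 3 higher, where 26.2% and 27.7% of all genes were. Egr3 (-0.44 ± 0.05, limma-trend adjusted p = 2.13e-11) and Egr4 (-0.63 ± 0.07, 5.46e-11) were among the lower. Without the HT fluoxetine females 17 were lower and 5 higher, where 28.1% and 29.5% of all genes were. With slopes on GC and length as covariates 8 of the 30 fell and 1 rose under fluoxetine, where 3.44% and 3.77% of all genes did, and 1 fell and 1 rose under lithium, where 5.05% and 6.51% did.

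Upstream, 5 of 23 genes of the MAP kinase and JNK routes to AP-1 fell and 1 rose under fluoxetine, and 14 fell and 6 rose under lithium (medians -0.04 and -0.20). The fluoxetine counts were 1 and 0 without the HT females, where 0.872% of all genes fell and 1.21% rose. Dusp1, an immediate early gene for a phosphatase that switches these kinases off, fell by 0.58 ± 0.10 under fluoxetine (limma-trend adjusted p = 5.49e-05), and Rps6ka1, encoding a kinase below ERK, by 0.18 ± 0.03 (3.73e-05). Without those females Dusp1 was at -0.74 ± 0.12 (adjusted p = 0.00015), the 1 call of the list, and Rps6ka1 at -0.08 ± 0.04 (0.322). Under lithium the JNK scaffold genes Mapk8ip2 (-0.34 ± 0.02, 1.13e-20) and Mapk8ip3 (-0.34 ± 0.02, 4.22e-20) led the list. Of 17 factors that read the Fos promoter or its relatives (SRF, its ternary complex partners, CREB and MEF2 proteins and their coactivators), 7 fell and 1 rose under fluoxetine, and 11 fell and 2 rose under lithium (medians -0.06 and -0.28). The fluoxetine counts were 0 and 1 without the HT females, against the same shares of 0.872% and 1.21%. The riser was Mrtfa, named after its value was seen. The CREB coactivator gene Crtc1 fell by 0.11 ± 0.02 under fluoxetine (0.000339; without those females -0.02 ± 0.03, 0.909) and by 0.39 ± 0.02 under lithium (1.1e-20), and Srf by 0.50 ± 0.03 under lithium (2.64e-19). With slopes on GC and length as covariates, 0 of the 23 kinase route genes fell and 1 rose under lithium, and 1 of the 17 factors fell and 0 rose. Of all genes, 5.05% fell and 6.51% rose under lithium in that fit.

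For genes of partners and downstream genes, the counts under lithium lay near the shares of all genes. Of 14 tested genes for other AP-1 and dimer partners, 2 rose and 0 fell under fluoxetine: Maff, for a small Maf protein (0.45 ± 0.09, limma-trend adjusted p = 0.00015), and the AP-1 repressor gene Jdp2 (0.16 ± 0.04, 0.00923). The same 2 genes rose without the HT fluoxetine females, where 1.21% of all genes did (Maff 0.54 ± 0.10, limma-trend adjusted p = 0.0013, and Jdp2 0.21 ± 0.05, 0.0168). Under lithium 5 of the 14 rose and 5 fell, led by Mafg (-0.23 ± 0.02, 6.61e-14) and Atf4 (0.25 ± 0.03, 1.46e-10). Of 27 late response genes and reported AP-1 targets, 1 rose and 1 fell under fluoxetine, Ptgs2 (0.20 ± 0.06, 0.017) and the cyclin gene Ccnd1 (-0.15 ± 0.04, 0.00978). Neither passed without those females (Ptgs2 0.15 ± 0.07, limma-trend adjusted p = 0.359, and Ccnd1 -0.14 ± 0.05, 0.225). There 1 other gene of the list, Plat, rose (named after its value was seen), where 1.21% of all genes did. Under lithium 9 of the 27 rose and 8 fell, with the neuropeptide gene Vgf at -0.50 ± 0.05 (5e-12) and the glutamate receptor gene Gria2 at 0.24 ± 0.03 (5.18e-10). The fit with GC and length slopes called 1 partner gene higher and 3 lower under lithium, and 3 of the 27 downstream genes higher and 2 lower. Of all genes, that fit called 6.51% higher and 5.05% lower under lithium.

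Markers of several cell types differed in the same comparisons, against the shares of all genes given above. For the cortical label, the summed markers of excitatory neurons lay between 138447 and 202266 under vehicle, 137090.0 and 210860.1 under fluoxetine and 123543 and 164169 under lithium, and 1 of 8 fell under fluoxetine, and 6 fell and 1 rose under lithium. Of 8 endothelial markers, 3 fell and 1 rose under fluoxetine and 6 fell and 1 rose under lithium; their sum was 6745 to 9645 under vehicle, 6596 to 9769 under fluoxetine and 5999.5 to 9223 under lithium. Of 8 markers of pericytes and smooth muscle, 4 fell under fluoxetine and 6 under lithium, and their sum was 5035 to 9523, 5556 to 9592 and 4999.8 to 8974. Of 8 astrocyte markers 0 passed under fluoxetine, and 4 fell and 1 rose under lithium, with sums of 135306 to 183872, 130392.5 to 192989.7 and 126423.5 to 169334. Of 8 microglial markers 1 rose and 2 fell under fluoxetine, and 4 rose and 2 fell under lithium; of 8 of inhibitory neurons 1 rose under fluoxetine, and 2 rose and 3 fell under lithium. Under fluoxetine 0 of 8 meningeal, 8 oligodendrocyte, 5 blood, 5 choroid plexus, 7 striatal and 7 olfactory bulb markers passed. Under lithium 3 meningeal markers rose and 4 fell, 1 oligodendrocyte marker fell, 2 blood markers rose, 1 choroid plexus marker rose, 1 striatal marker fell and 0 olfactory bulb markers passed. Without the HT fluoxetine females, 1 endothelial and 1 excitatory marker fell under fluoxetine and 0 markers of the other lists passed. Of all genes, 0.872% fell and 1.21% rose there. In the HT fluoxetine females the excitatory sum was 137090.0 to 151067. Sums of striatal markers ran from 2846 to 17169 and of olfactory bulb markers from 1921 to 17296 over the 59 libraries. Those of oligodendrocyte markers ran from 40886 to 228405, both in vehicle libraries, and of choroid plexus markers from 49.5 to 3021. No marker found in the table was at 0. Their part in the AP-1 results was not tested.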

How the data were processed

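Total RNA from the prefrontal cortex was made into libraries with a stranded TruSeq mRNA kit, per the labels' protocols. GRCm38 is the genome build in the submitters' processing notes, and DESeq2 1.19.11, Salmon 0.11.2 and R 3.6.0 are the tools; the annotation release is not given in the sources used here. The authors deposited 1 table of normalised signal per gene, that is, gene counts divided by a size factor for each library (0.827 to 1.129). In every library 100% of the values checked came out as whole reads, within 0.01 read, once multiplied by that factor. Those checked were the non-zero values up to a set limit, and higher values were not checked.

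Genes with a value of at least 10 in at least 4 libraries were tested by limma-trend in R 4.3.3 (limma 3.58.1), using log2(value + 1), with 1 mean for each of 12 groups, 47 residual degrees of freedom and Benjamini-Hochberg adjustment over all 17891 genes at a threshold of 0.05. Fold changes are on that scale, which understates those of low genes. Promoter windows, symbols, exon lengths and GC content were matched by gene (GENCODE M21 for 18077 of 18088 genes). The recovered reads were tested with edgeR 4.0.16, which called 1598 genes higher and 1941 lower for fluoxetine and 5583 and 5631 for lithium, and with DESeq2 1.42.0. Other alternatives were scaling, filters, pseudocounts, the variance model, fewer groups in the fit, GC and length covariates, the replicate block, omission of the 5 HT fluoxetine females and omission of each library. The scripts were tested on simulated data.

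The members and gene lists were chosen with earlier results of these data known. Named genes were the 6 members, up to 3 genes of each list with the smallest p, and the 5 genes with the highest correlation with each member. Lithium against fluoxetine in HT females, the counts of members that fell, and the list counts without the HT fluoxetine females or with covariates were added after seeing the data. Libraries were not treated as paired, since those of the same replicate number had a mean correlation of 0.0104. No 2 replicates were near-identical. Libraries labelled female and male matched their sex in 30 of 30 and 29 of 29 cases. Fosl1, Batf, Batf2, Rps6ka4, Mmp3 and Kcne2 were not analysed here.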

Additional observations from a re-analysis of the deposited data

Results flagged for a closer look

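Fos in HT lithium male replicate 5 was 856.4, far from the other 4 males of its group, the next of which was at 408.2. The gap was 0.768 of the group's range, above Dixon's 95% critical value for 5 libraries. It was the 1 such library in 72 groups of 4 or 5 (6 genes in 12 groups), where chance gives about 1 in 20.

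The fluoxetine difference of Jund was not the same in the sexes of HT mice: the female difference minus the male difference was -0.5956 on the log2 scale (limma-trend adjusted p = 0.00129). With GC and length slopes as covariates it was -0.34 (adjusted p = 0.276). Of all 17891 genes tested, 1179 were called higher and 1537 lower (8.59%) in this comparison. The HT fluoxetine females are the group that lies with the lithium libraries in profile.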

How the results depend on the processing

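Of 62 results on single genes, all 62 kept their direction and side of the threshold with edgeR and without the filter on low values. The same held with pseudocounts of 0.5 and 5 and with the replicate block, which changed no call. Same-numbered libraries of different groups had a mean correlation of 0.0104, against -0.00257 for other numbers, and 57 of 319 pairs exceeded 0.1. These are the replicate numbers of the sample titles. Library numbers, which differ from them among the HT vehicle males, were not tried. DESeq2, quantile normalisation, median centring, the untrended and robust variance models and a mean of at least 100 each changed 1 call, and fitting only the groups compared changed 2. Drug against vehicle within a genotype entered the 62 only where limma-trend called it. DESeq2 called 3 members for fluoxetine in WT mice, where limma-trend called 2. For lithium in HT males DESeq2 called 4 and limma-trend 5. The pairs of genes past the threshold numbered 10 of 15 under both alternatives run.

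With GC and length slopes as covariates, 20 results were the same, 28 lost their call, 1 gained it and 13 turned direction; the cause was not tested. The members called went from 5 to 1 for fluoxetine (fell: 1), from 6 to 0 for lithium (fell: 0), from 5 to 0 for lithium against fluoxetine (fell: 0), from 0 to 1 for genotype over all treatments (Jun, 0.11) and from 1 to 0 for sex. The turned log2 differences were 0.43 for Fosl2 under lithium, 0.38 in WT and 0.49 in HT; 0.0898 for Fosb, 0.50 for Fosl2 and, in HT females, 0.0309 for Fosl2 in lithium against fluoxetine; 0.083, 0.0324 and 0.0458 for Jund in genotype by fluoxetine, genotype by lithium and HT against WT under fluoxetine. For Jun they were 0.0453 for fluoxetine in HT, 0.13 in HT females, 0.0019 for lithium in HT and 0.13 for HT against WT under fluoxetine in females.

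Without the HT fluoxetine females, fluoxetine called 3 members (2 fell) and sex 0; Jund turned to 0.10 for genotype by fluoxetine, 0.0058 for sex by fluoxetine and 0.25 for HT against WT under fluoxetine. Sex by fluoxetine called 1 member with DESeq2 and with a mean of at least 100. Leaving out each library gave 4 to 5 members called for fluoxetine, 6 to 6 for lithium, 5 to 5 for lithium against fluoxetine, and 0 to 1 for sex, genotype by fluoxetine and sex by fluoxetine. Fos in HT against WT over all treatments ran from -0.0954 to 0.0068, positive without HT vehicle female 4, and Fosl2 in lithium against fluoxetine in HT females from -0.1426 to 0.0323. The lowest value of the 6 genes in any library was 175.8 normalised reads, for Fosb.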
